A study of Homo sapiens with 16 samples.

Results

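The 4 HOX clusters were examined in 2 human melanoma cell lines that had been made resistant to the BRAF inhibitor PLX4032 (vemurafenib), with and without corin. Members were all protein-coding genes of the gene table whose symbol is HOX followed by the cluster letter A, B, C or D and a paralog number. This gave 38 of the 34228 genes in the table, of which 37 are described, and every count and sum of members below is over these 37. HOXB1 was not analysed here. The 4 groups of 2 libraries each were 451Lu-R with DMSO, 451Lu-R with corin, 1205Lu-R with DMSO and 1205Lu-R with corin. Corin, a small molecule that inhibits both HDAC1/2 and the demethylase LSD1 within the CoREST repressor complex, was given at 2.5 μM for 24 hours, and DMSO was its vehicle. The sample titles write 451Lu and 1205Lu, and their source names mark both lines as BRAF inhibitor resistant. All 4 groups thus share a history of long exposure to PLX4032, and no drug-sensitive parent entered the comparison. None of the 4 groups was given PLX4032 during the 24 hours, although the study cultured its resistant lines in PLX4032 to keep them resistant. The study describes 451Lu-R as MITFhi/AXLlo, a differentiated state, and 1205Lu-R as MITFlo/AXLhi, an undifferentiated one. PolyA RNA was sequenced. Each phenotype is represented by 1 cell line, so a difference between phenotypes and a difference between lines cannot be told apart.

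HOX genes encode homeodomain transcription factors that give cells of the embryo their place along the head-to-tail axis. Their order along each chromosome follows the order of their expression domains, with paralogs 1 to 3 acting toward the head (anterior), 4 to 8 in the middle (central) and 9 to 13 toward the tail and the ends of the limbs (posterior). Polycomb complexes keep the clusters silent, KMT2A complexes keep them active, and retinoic acid switches on the anterior end first. Adult cells of skin and connective tissue keep part of the code as a positional memory, and HOX proteins choose their DNA sites together with PBX, MEIS and PKNOX cofactors.

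In hg38, from the first to the last member described, the HOXA cluster lies on the minus strand at chr7:27100354-27200091 with 10 members described, HOXB on the minus strand at chr17:48540894-48728750 with 9, HOXC on the plus strand at chr12:53938831-54056030 with 9, and HOXD on the plus strand at chr2:176092721-176190907 with 9. Of the 37 members, 6 are anterior, 15 central and 16 posterior. Library totals ran from 9516687 to 11797788 estimated counts, so most HOX genes rested on a small part of the reads. A group whose 2 libraries both held 3 counts or fewer is called at the floor below, and a fold against it is given only as a lower bound.

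The marker genes separated the lines as their labels say, with one limit. All 8 melanocytic markers were above the floor in 451Lu-R, where they summed to between 12960 and 12980 CPM (counts scaled to the effective library size) with DMSO. In 1205Lu-R with DMSO, 3 of these 8 were above the floor and the sum was 33.7 to 34.6 CPM, and SOX10 and TYR, which define the melanocytic lineage, had 0 counts in all 4 of its libraries. Fibroblast markers, which matter here because fibroblasts carry a strong HOX code, summed to 49.2 to 52.9 CPM in 451Lu-R with DMSO and to 159 to 163 CPM with corin, with 3 and then 6 of 8 above the floor. In 1205Lu-R they fell from between 349 and 353 CPM to between 178 and 181 CPM, with 3 of 8 above the floor in both groups. PDGFRA and PDGFRB, at means of 204 and 146 CPM with DMSO, carried most of the sum in 1205Lu-R. COL1A1 rose with corin in that line, from a mean of 1.20 to 8.48 CPM, against the fall of the sum. COL3A1 had at most 1 count in any library. Keratinocyte markers summed to between 18.1 and 34.0 CPM and leukocyte markers to at most 2.19 CPM over all 8 libraries. Markers of undifferentiated melanoma went from 77.3 to 80.9 CPM to between 552.6 and 553.0 CPM in 451Lu-R and from between 3260 and 3307 to between 2389 and 2427 CPM in 1205Lu-R. NGFR carried most of the rise in 451Lu-R, from a mean of 1.03 to 362 CPM. It also rose in 1205Lu-R, from 6.12 to 194 CPM, where 5 of the 6 markers fell. The part of these shifts in the HOX results was not tested. In bulk RNA, fewer cells holding a transcript and less of it per cell cannot be told apart.

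Both lines carried transcripts from all 4 clusters, with a different member leading in each. Above the floor were 24 of 37 members in 451Lu-R with DMSO, 24 in 451Lu-R with corin, 31 in 1205Lu-R with DMSO and 29 in 1205Lu-R with corin. In every group 21 members were above it, and HOXA7, HOXC12 and HOXD12 were at it throughout. Per kilobase of exon, HOXD13, a posterior gene for digits and genitalia, stood first in 451Lu-R with DMSO at 23.8 ± 0.04 CPM per kb (SD, n = 2), ahead of HOXB2 at 11.6 ± 0.30 and HOXC10 at 10.0 ± 0.60. In 1205Lu-R with DMSO, HOXB7 stood first at 18.3 ± 1.43 CPM per kb, then HOXD4 at 15.4 ± 0.87 and HOXB6 at 14.4 ± 0.47. HOXB7 and HOXD4 were both at the floor in 451Lu-R. The neighbours HOXD4 and HOXB6 in this order differed by about their spread, while the leading gene of 451Lu-R was far outside it.

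**Figure D1:**
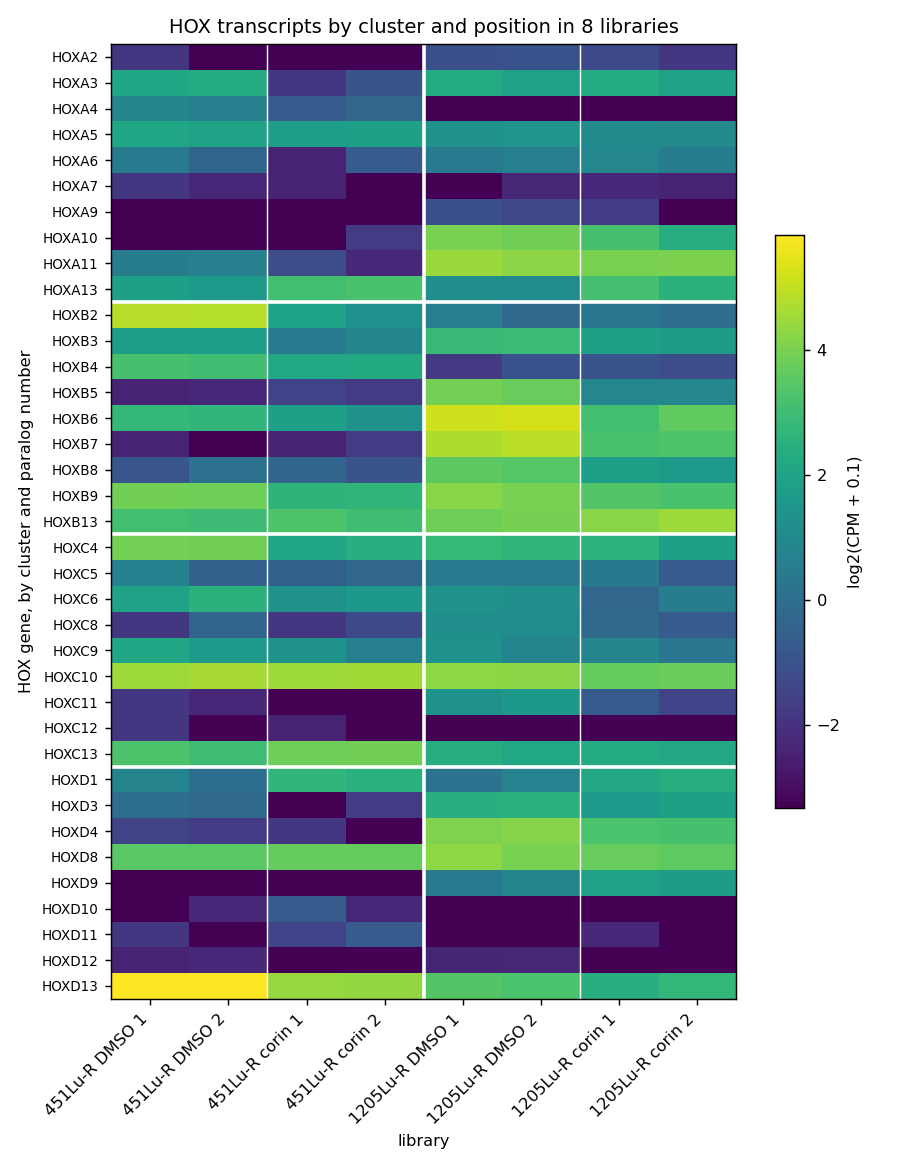
Level of each of the 37 HOX genes (rows, by cluster and paralog number) in the 8 libraries (columns), coloured by log2(CPM + 0.1), with white lines between clusters and groups. The 2 libraries of a group look alike, HOXD13 is brightest in 451Lu-R with DMSO at about 57.3 and 57.5 CPM, and HOXB5, HOXB7 and HOXD4 are bright only in the 1205Lu-R libraries.

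With corin, the summed HOX transcripts were lower in both lines. Over the 37 members the sum was 217.5 and 212.3 CPM in the 451Lu-R DMSO libraries and 130.6 and 129.0 CPM with corin, and 278.5 and 268.6 CPM in 1205Lu-R with DMSO against 167.0 and 161.9 CPM with corin. The groups did not overlap in either line. Of the 3 clusters whose sums are given, HOXB, without HOXB1, had the largest drop and went from a mean of 70.3 ± 2.0 to 28.2 ± 2.58 CPM in 451Lu-R and from 131.8 ± 0.44 to 59.7 ± 4.33 CPM in 1205Lu-R (SD, n = 2). HOXD went from 71.3 ± 0.57 to 40.6 ± 0.86 CPM in 451Lu-R and from 53.8 ± 1.30 to 39.3 ± 0.07 CPM in 1205Lu-R. HOXC went from 57.3 ± 0.31 to 47.1 ± 1.07 and from 41.2 ± 1.80 to 26.8 ± 2.23 CPM. A sum follows its most abundant members. No sum is given for HOXA.

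The question of the corin comparisons was which members moved within a day of CoREST inhibition. In 451Lu-R 19 of 37 members passed the filter on low counts, 3 rose and 12 fell at an FDR under 0.05 (edgeR quasi-likelihood test, adjusted over 14530 genes), and 41.3% and 38.6% of all tested genes rose and fell. In 1205Lu-R 28 members passed the filter, 4 rose and 16 fell, against 40.4% and 37.8% of 14563 genes. The median log2 fold change of the tested members was -0.91 in 451Lu-R and -0.54 in 1205Lu-R, where the median of all tested genes was 0.03 in both. Under the stricter rule of a 4-fold change with an FDR under 0.001, HOXD1 rose (1 member, background 12.4%) and HOXA3, HOXA11 and HOXB2 fell (3 members, 2.72%) in 451Lu-R. HOXD1 no longer passed this rule without the second DMSO library (log2 1.94), and HOXA11 did not pass it whichever of the 4 libraries was left out, by DESeq2 or with a replicate block. In 1205Lu-R, HOXB5 and HOXC11 fell by that rule (2 members, 1.43%) and 0 of the 28 tested members rose (11.3%). With 1 library left out, HOXD1 passed it there without the second DMSO (log2 2.23) or the first corin library (log2 2.01), and HOXA13 without the second corin library (log2 2.04). Members that passed the filter only through the group where they were high had to differ, so these counts describe the tested members and no others. Among the members named under the stricter rule this holds for HOXA3, HOXA11 and HOXD1 in 451Lu-R and for HOXC11 in 1205Lu-R. By DESeq2 the falls of HOXA4, HOXB3, HOXC6 and HOXC9 in 451Lu-R and of HOXA11, HOXC6, HOXD3 and HOXD8 in 1205Lu-R no longer passed, with log2 fold changes of -1.34, -1.17, -0.79, -0.78, -0.30, -1.11, -0.71 and -0.46 in that order.

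The central genes were the one class with no rise in either line. Of 7 tested central genes in 451Lu-R, 5 fell, and of 12 in 1205Lu-R, 8 fell, with median log2 fold changes of -0.91 and -0.98. By DESeq2 the falls of HOXA4 and HOXC6 in 451Lu-R and of HOXC6 and HOXD8 in 1205Lu-R did not pass. The called falls of HOXA4 in 451Lu-R and of HOXC6 and HOXC8 in 1205Lu-R are of genes that passed the filter only through DMSO. The tested anterior genes split, with 1 up and 3 down of 4 in 451Lu-R and 1 up and 2 down of 5 in 1205Lu-R. Among tested posterior genes 2 rose and 4 fell of 8 in 451Lu-R, and 3 rose and 6 fell of 11 in 1205Lu-R. No test between the classes was run.

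**Figure D2:**
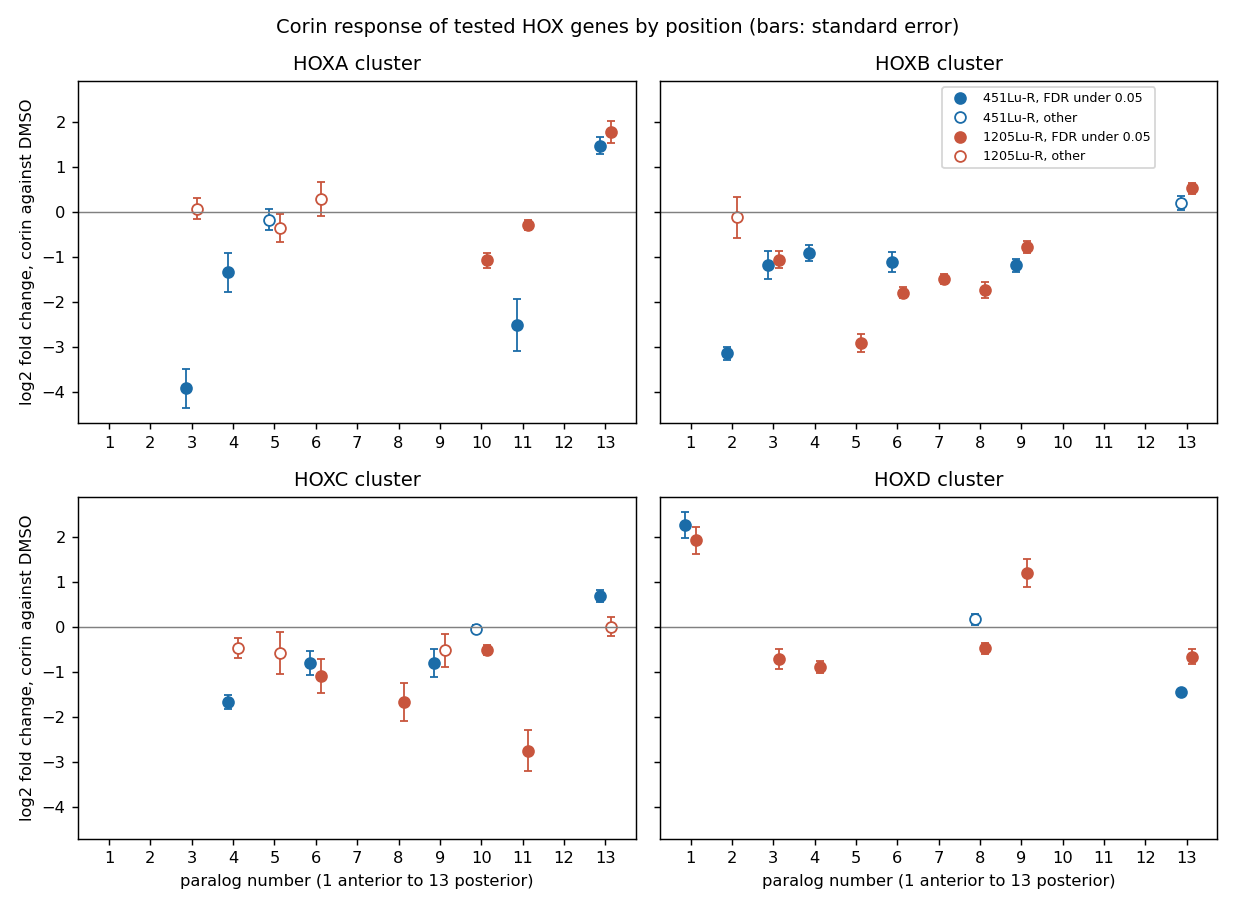
Log2 fold change of corin against DMSO (vertical axis, bars are the standard error of the fit) for each tested HOX gene by paralog number (horizontal axis), with a panel for each cluster, 451Lu-R in blue and 1205Lu-R in red. Filled points passed an FDR of 0.05. HOXD1 and HOXA13, at the ends of their clusters, lie above 1 in both lines, and no filled point for paralogs 4 to 8 lies above 0.

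Of the members described, the anterior gene HOXD1 and the posterior gene HOXA13 rose in both lines. HOXD1, which lies at the anterior end of HOXD, had 18 and 9 counts under DMSO and 74 and 56 under corin in 451Lu-R. The 1205Lu-R libraries held 11 and 16 counts under DMSO and 45 and 59 under corin. Its rise was 4.83-fold in 451Lu-R (log2 2.27 ± 0.29, SE, adjusted p = 4.77e-07, edgeR) and 3.82-fold in 1205Lu-R (log2 1.93 ± 0.30, adjusted p = 4.13e-06). HOXA13, which patterns the hand, foot and genital region, had 39 and 29 counts under DMSO and 96 and 90 under corin in 451Lu-R, and 24 and 21 with DMSO against 86 and 68 with corin in 1205Lu-R. It rose 2.76-fold (adjusted p = 1.04e-06) and 3.42-fold (adjusted p = 1.28e-06) by the same test. For both genes the DMSO and corin libraries did not overlap in either line, which is a description, since the genes were picked by these calls. The share of all genes without overlap was not computed. HOXD1 passed the filter in 451Lu-R only through corin, so its value there is a description as well. HOXA13 marks the posterior end of HOXA.

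HOXD13, at the other end of HOXD, went the opposite way. It had 641 and 572 counts in 451Lu-R under DMSO and 242 and 201 under corin, and 110 and 96 counts with DMSO against 54 and 77 with corin in 1205Lu-R. The loss was 2.71-fold in 451Lu-R (log2 -1.44 ± 0.07, adjusted p = 6.56e-13, edgeR) and 1.57-fold in 1205Lu-R (log2 -0.65 ± 0.16, adjusted p = 0.000879). It nevertheless kept the second highest level per kilobase in 451Lu-R with corin, at 8.65 ± 0.16 CPM per kb, after HOXC10 at 9.57 ± 0.23.

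The promoter windows of 4 members that differ in these responses are shown, each from 250 bases before to 50 bases after the annotated start (RefSeq, GRCh38.p14). HOXD1 and HOXA13 rose in both lines, HOXD13 fell in both, and HOXD4 was above the floor only in 1205Lu-R. They lie at chr2:176188418-176188717 on the plus strand (HOXD1), chr7:27200042-27200341 on the minus strand (HOXA13), chr2:176092471-176092770 on the plus strand (HOXD13) and chr2:176151300-176151599 on the plus strand (HOXD4). Capitals mark CCAAT, the letters of the CCAAT box, and GGGCGG, the letters of a GC box, on either strand.
HOXD1: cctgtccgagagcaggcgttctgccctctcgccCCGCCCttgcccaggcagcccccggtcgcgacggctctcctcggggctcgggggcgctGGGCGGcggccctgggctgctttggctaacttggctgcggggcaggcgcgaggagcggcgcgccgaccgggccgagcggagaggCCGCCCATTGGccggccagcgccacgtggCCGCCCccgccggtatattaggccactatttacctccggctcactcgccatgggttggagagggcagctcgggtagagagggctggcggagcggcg
HOXA13: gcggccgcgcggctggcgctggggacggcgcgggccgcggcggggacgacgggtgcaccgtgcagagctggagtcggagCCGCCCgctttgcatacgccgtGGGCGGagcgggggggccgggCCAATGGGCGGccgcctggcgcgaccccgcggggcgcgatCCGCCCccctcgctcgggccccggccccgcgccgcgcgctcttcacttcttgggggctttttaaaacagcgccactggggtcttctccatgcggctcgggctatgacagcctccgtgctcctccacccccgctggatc
HOXD13: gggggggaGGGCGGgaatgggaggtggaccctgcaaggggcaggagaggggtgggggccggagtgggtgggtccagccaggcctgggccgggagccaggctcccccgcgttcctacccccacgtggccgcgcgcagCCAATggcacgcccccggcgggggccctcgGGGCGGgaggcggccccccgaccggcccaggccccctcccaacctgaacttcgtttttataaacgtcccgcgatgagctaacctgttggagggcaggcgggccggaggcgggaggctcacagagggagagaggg
HOXD4: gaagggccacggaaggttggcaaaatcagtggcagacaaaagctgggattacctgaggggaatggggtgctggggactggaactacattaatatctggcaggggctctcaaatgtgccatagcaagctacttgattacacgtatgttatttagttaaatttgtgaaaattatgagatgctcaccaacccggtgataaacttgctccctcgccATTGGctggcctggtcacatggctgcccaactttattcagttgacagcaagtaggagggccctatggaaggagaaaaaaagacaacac
The first 3 windows are rich in CpG, with 36, 44 and 24 CpG dinucleotides, and the HOXD4 window holds 4. The RefSeq table gave 25 distinct windows for 19 members, all of HOXA and HOXD apart from HOXC4 and HOXC5, with none of HOXB and with 7 of the windows belonging to HOXA3. Their median was 23 CpG against 14 over all 34943 windows. CCAAT, on either strand, was in 64.0% of the HOX windows and 34.6% of all windows, and GGGCGG in 52.0% and 44.9%. The E-box CAGGTG was in 1 of the 25 HOX windows (4.0%) and 20.6% of all windows, the AP-1 letters TGANTCA were in 0 and 7.72%, and TGATNNAT, the core bound by HOX and PBX together, was in 8.0% and 7.42%. HOXC4 and HOXC5 share a window. These matches are a description, and CpG-rich windows hold GGGCGG more readily.

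The largest falls in 451Lu-R were of anterior genes, and the same genes did not pass the test in 1205Lu-R. HOXA3, a gene of the pharyngeal arches and thymus, had 47 and 49 counts under DMSO and 2 and 4 under corin in 451Lu-R, but 50 and 38 under DMSO and 48 and 44 under corin in 1205Lu-R. The log2 fold changes were -3.93 ± 0.43 (15.3-fold, adjusted p = 5.86e-08) and 0.07 ± 0.23 (adjusted p = 0.801), and the difference between the lines was 3.96 ± 0.51 by the interaction term (log2, adjusted p = 1.23e-06, edgeR). In 451Lu-R HOXA3 passed the filter on low counts only through its DMSO libraries, so its values there are a description. With DMSO the lines did not differ detectably in HOXA3 (log2 -0.10 ± 0.22, adjusted p = 0.688). HOXB2, which helps to set hindbrain segments, had 325 and 279 counts under DMSO and 44 and 23 under corin in 451Lu-R, and only 15, 8, 11 and 10 counts in the 4 libraries of 1205Lu-R. It fell 8.90-fold in 451Lu-R (log2 -3.15 ± 0.15, adjusted p = 1.81e-13) and did not pass in 1205Lu-R (log2 -0.13 ± 0.45, adjusted p = 0.804), with a difference between lines of 2.99 ± 0.51 (adjusted p = 4.37e-05). HOXB3, the third anterior gene that fell, did so in both lines, from 38 and 34 to 14 and 17 counts in 451Lu-R (log2 -1.19 ± 0.31, adjusted p = 0.00181) and from 78 and 77 to 36 and 38 counts in 1205Lu-R (log2 -1.07 ± 0.20, adjusted p = 4.05e-05). HOXD3 had 10 and 8 counts with DMSO in 451Lu-R and 0 and 2 with corin, at least 2.98-fold lower, and was not tested there. In 1205Lu-R it fell from 58 and 58 to 29 and 42 counts (log2 -0.71 ± 0.22, adjusted p = 0.00591). HOXA2 had at most 4 counts in any library. HOXB3 shares exons with HOXB4 and HOXB6 on one strand, and HOXA3 with unnamed transcripts, so reads could be divided between them in the authors' counting.

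**Figure D3:**
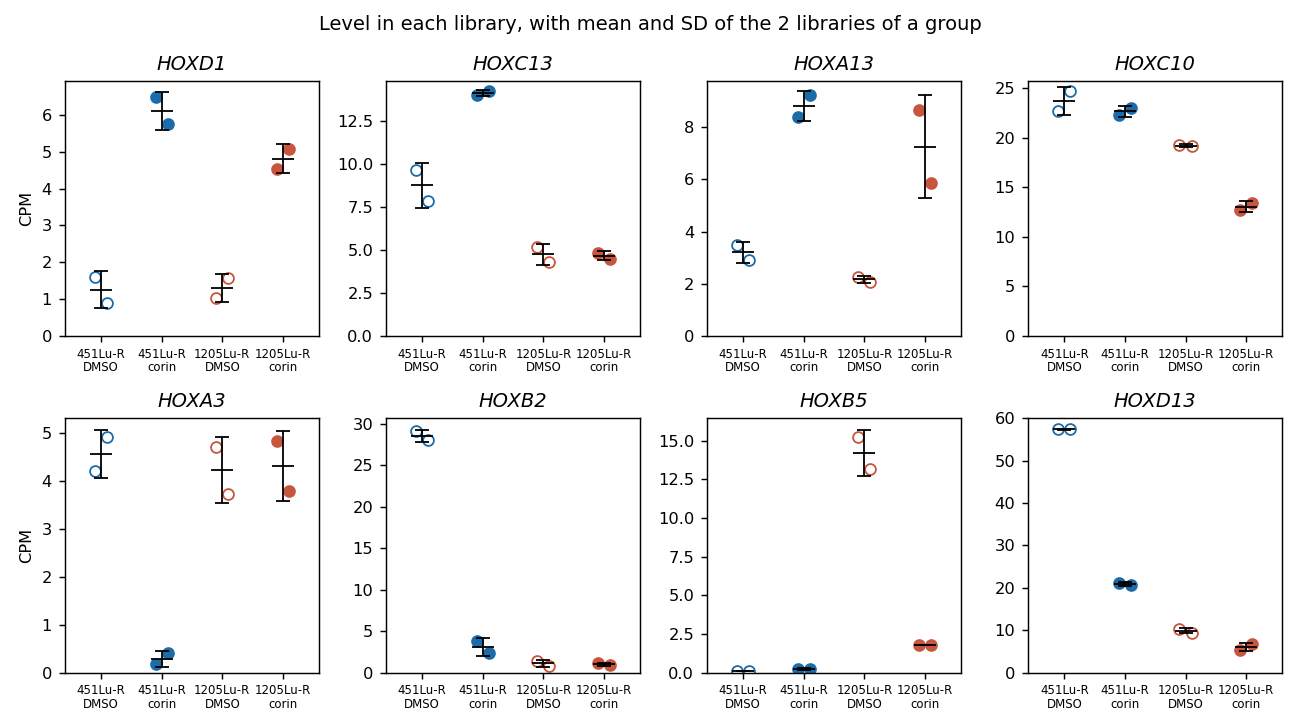
CPM (vertical axis) of 8 HOX genes in each library, open for DMSO and filled for corin, blue for 451Lu-R and red for 1205Lu-R, with a black bar for the mean and SD of the 2 libraries of a group. HOXD1 and HOXA13 are higher with corin in both lines, HOXC13 is higher with corin in 451Lu-R, HOXA3 drops from a mean of 4.56 to 0.29 CPM in 451Lu-R and not in 1205Lu-R, and HOXB5 drops from 14.2 to 1.81 CPM in 1205Lu-R.

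Among central genes the HOXB row carried most of the change in 1205Lu-R. HOXB5, HOXB6, HOXB7 and HOXB8, neighbours that act in the trunk, all fell there. HOXB5 went from 162 and 134 to 18 and 21 counts, the largest fall of any member in 1205Lu-R at 7.55-fold (log2 -2.92 ± 0.19, adjusted p = 7.22e-12, edgeR). HOXB6 went from 389 and 391 to 82 and 142 counts (3.49-fold, adjusted p = 5.79e-12). HOXB7 went from 279 and 299 to 91 and 114 counts (2.82-fold, adjusted p = 5.92e-11). HOXB8 went from 123 and 110 to 35 and 34 counts (3.37-fold, adjusted p = 9.93e-09). In 451Lu-R HOXB5 and HOXB7 were at the floor with and without corin, HOXB8 had 5, 10, 8 and 4 counts and was not tested, and HOXB6 fell from 76 and 65 to 40 and 24 counts (2.18-fold, adjusted p = 0.000131). HOXB4, a regulator of blood stem cells, fell in 451Lu-R from 100 and 81 to 50 and 45 counts (1.88-fold, adjusted p = 0.000108), and had at most 4 counts in the 1205Lu-R libraries.

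Outside HOXB, the largest called falls of central genes were those of HOXC4 and HOXA4 in 451Lu-R and of HOXC8 in 1205Lu-R. HOXC4 fell in 451Lu-R from 170 and 143 to 47 and 51 counts (3.15-fold, adjusted p = 7.95e-09) and missed the threshold in 1205Lu-R, at 74 and 64 and then 59 and 41 counts (log2 -0.46 ± 0.22, adjusted p = 0.0561). It passed there without the first corin library of 1205Lu-R (log2 -0.86) and without the second DMSO library (log2 -0.55). HOXC6 fell in both lines, 1.74-fold (adjusted p = 0.0107) and 2.13-fold (adjusted p = 0.0133). These HOXC6 calls are fragile, since the log2 fold change without single libraries ran from -1.10 to -0.46 in 451Lu-R and from -1.68 to -0.72 in 1205Lu-R, and 2 of the 4 fits passed in each line. The lost calls were those without the second DMSO or the first corin library in 451Lu-R (log2 -0.46 and -0.70) and without the first DMSO or first corin library in 1205Lu-R (log2 -1.04 and -0.72). HOXA4 fell in 451Lu-R from 19 and 15 to 6 and 7 counts (2.55-fold, adjusted p = 0.00907) and passed in 2 of 4 such fits, missing without the first DMSO library (log2 -1.27) or the first corin library (log2 -1.12). HOXC8 fell in 1205Lu-R from 24 and 21 to 8 and 6 counts (3.17-fold, adjusted p = 0.00107). HOXD4 fell 1.84-fold there, from 178 and 185 to 93 and 104 counts (adjusted p = 1.39e-06). HOXD8 fell 1.38-fold in 1205Lu-R (adjusted p = 0.00174) and had a log2 fold change of 0.18 ± 0.12 in 451Lu-R (adjusted p = 0.189). HOXA5, a regulator of lung and skeletal patterning, passed in neither line, with 47, 38, 39 and 35 counts in 451Lu-R, against 27, 27, 20 and 22 in 1205Lu-R. HOXA6 and HOXC5 had at most 18 counts in any library. For corin against DMSO they were not tested in 451Lu-R and did not pass in 1205Lu-R. HOXC4, HOXC6 and HOXC9 overlap in their exons on one strand.

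Posterior genes moved both ways. Beside HOXA13, HOXC13, which is needed for hair and nails, rose in 451Lu-R from 108 and 78 to 160 and 139 counts (1.63-fold, adjusted p = 9.72e-05) and had 55, 44, 48 and 52 counts in 1205Lu-R, where its log2 fold change was 0.01 ± 0.21 (adjusted p = 0.953). HOXB13, a prostate and hindgut regulator that stands far from the rest of HOXB, rose in 1205Lu-R from 149 and 158 to 182 and 259 counts (1.43-fold, adjusted p = 0.000391) and had a log2 fold change of 0.20 ± 0.16 in 451Lu-R (adjusted p = 0.254). HOXD9 rose in 1205Lu-R from 14 and 18 to 37 and 37 counts (2.30-fold, adjusted p = 0.00129) and had 0 counts in all 4 libraries of 451Lu-R. Of the paralog 13 genes, HOXA13 thus rose in both lines, HOXC13 and HOXB13 each in 1, and HOXD13 in neither. Rises were common among all tested genes (41.3% for 451Lu-R, 40.4% for 1205Lu-R), so these few calls are a description. The paralog 13 genes were not tested as a set.

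The remaining posterior genes that passed fell. HOXA11, a limb and uterus gene, had 15 and 15 counts under DMSO and 4 and 1 under corin in 451Lu-R (5.72-fold, adjusted p = 0.000592). It passed the filter there only through DMSO, so this value is a description. In 1205Lu-R it had 236 and 191 counts under DMSO and 158 and 188 under corin, a fall of 1.24-fold (adjusted p = 0.0156) that was lost without the first DMSO library (log2 -0.19), by DESeq2 (log2 -0.30) and with library totals as the only scaling (log2 -0.23). HOXC11 fell 6.70-fold in 1205Lu-R, from 26 and 29 to 5 and 3 counts (adjusted p = 1.24e-05), and was at the floor in 451Lu-R. In 1205Lu-R HOXC11 likewise passed the filter only through DMSO, so its value is a description. HOXA10 fell 2.12-fold in 1205Lu-R, from 171 and 146 to 89 and 60 counts (adjusted p = 6.75e-06). HOXB9 fell in both lines, from 164 and 139 to 70 and 61 counts in 451Lu-R (2.29-fold, adjusted p = 1.95e-07) and from 198 and 164 to 103 and 106 in 1205Lu-R (1.73-fold, adjusted p = 9.22e-06). HOXC10, a hindlimb and spinal cord gene, had 254, 246, 255 and 225 counts in 451Lu-R with no call (log2 -0.04 ± 0.09, adjusted p = 0.667) and fell 1.42-fold in 1205Lu-R (adjusted p = 0.000275). HOXC9 fell in 451Lu-R (1.72-fold, adjusted p = 0.0272), and this call was lost without the first DMSO library (log2 -0.52) or the second corin library (log2 -0.46). In 1205Lu-R HOXC9 did not pass (log2 -0.51 ± 0.37, adjusted p = 0.213). HOXD10 and HOXD11 had at most 6 counts in any library, and HOXA9 at most 4.

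The lines can be set side by side for the 17 members tested in both. HOXA13 and HOXD1 rose in both, which is 2 of the 3 members that rose in 451Lu-R and 2 of the 4 in 1205Lu-R. HOXA11, HOXB3, HOXB6, HOXB9, HOXC6 and HOXD13 fell in both, 6 of the 12 and 6 of the 16 that fell. Thus 2 of the 17 rose and 6 of the 17 (35.3%) fell in both, against 28.8% and 28.5% of 13200 genes tested in both. Of the members called in both, HOXA11 and HOXD1 in 451Lu-R and HOXC6 in 1205Lu-R passed the filter only through the treatment where they were high. By DESeq2 HOXB6, HOXB9 and HOXD13 fell in both, 17.6% of the members against 22.2% of the genes. None of these 17 members rose in one line and fell in the other, and the share of all genes that did so was not computed. The difference between the lines in the corin response was then tested with an interaction term over all 8 libraries. Of 30 tested members, 7 had a higher response in 1205Lu-R and 5 a lower one, against 22.6% and 27.1% of 16062 genes. With library totals as the only scaling the split was 9 and 2, HOXB9 (log2 0.57) and HOXB13 (log2 0.49) gaining a call while HOXB6, HOXC10 and HOXC13 lost theirs. Past the 4-fold rule were HOXA3 and HOXB2 with higher responses (background 2.43%) and 0 members with lower ones (3.13%). The anterior genes gave 3 of the 7 (HOXA3, HOXB2 and HOXD3) and none of the 5. For HOXB5 the difference of -4.19 ± 1.05 on the log2 scale (adjusted p = 0.00209) rests on 1, 1, 3 and 2 counts in 451Lu-R, so its size depends on the fit. HOXC10 gave -0.50 ± 0.14 (adjusted p = 0.004), HOXD8 -0.69 ± 0.18 (adjusted p = 0.00264) and HOXD13 0.75 ± 0.17 (adjusted p = 0.000711). For HOXA13 (0.27 ± 0.35, adjusted p = 0.561), HOXD1 (-0.38 ± 0.46, adjusted p = 0.537) and HOXB9 (0.36 ± 0.19, adjusted p = 0.129) the difference between the lines did not pass with TMM scaling. By DESeq2, 5 members had a higher and 2 a lower response in 1205Lu-R, since HOXA6, HOXB6, HOXC10, HOXC13 and HOXD3 no longer passed.

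The lines were also compared with DMSO alone. Of 30 tested members 15 were higher and 10 lower in 1205Lu-R, a total share close to that of all genes, of which 41% and 41.5% of 14104 were higher and lower. Under the 4-fold rule 11 were higher and 4 lower (backgrounds 10.1% and 10.6%). Of these, 6 of the 11 and 1 of the 4 were at the floor in the other line. HOXB8, HOXC8 and HOXD3 had only 5 and 10, 2 and 7, and 10 and 8 counts in 451Lu-R. HOXB2 and HOXB4 had only 15 and 8, and 2 and 4 counts in 1205Lu-R. None of these members would have passed the filter without the line where they were high. These counts and the values of these members are therefore a description. The largest differences were between a line at the floor and a line with a clear level. HOXB7 had 1 and 0 counts in 451Lu-R but 279 and 299 in 1205Lu-R, at least 97.7-fold higher there. HOXD4 was at least 61.4-fold higher in 1205Lu-R, HOXA10 at least 53.5-fold, HOXB5 at least 49.9-fold, HOXC11 at least 9.31-fold and HOXD9 at least 5.42-fold. HOXA4 was at least 5.55-fold lower in 1205Lu-R, where it had 0 counts in all 4 libraries. Neighbours could differ in opposite directions. Within HOXB, HOXB2 and HOXB4 were 25.5-fold and 28.4-fold lower in 1205Lu-R (adjusted p = 1.77e-17 and 2.02e-12, edgeR), while HOXB3 between them was 2.19-fold higher (adjusted p = 1.42e-05) and HOXB6 and HOXB8 were 5.64-fold and 15.6-fold higher (adjusted p = 1.16e-16 and 1.24e-12). Since HOXB3 shares exons with HOXB4 and HOXB6 on one strand, its value may hold reads of those genes, which was not tested. HOXA11 was 14.4-fold higher in 1205Lu-R (adjusted p = 3.46e-15), and HOXD13 5.76-fold lower (adjusted p = 1.47e-18). Within HOXC, log2 ratios ran from -1.15 to 0.26 for the tested members other than HOXC8 (2.32 ± 0.49) and HOXC11.

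**Figure D4:**
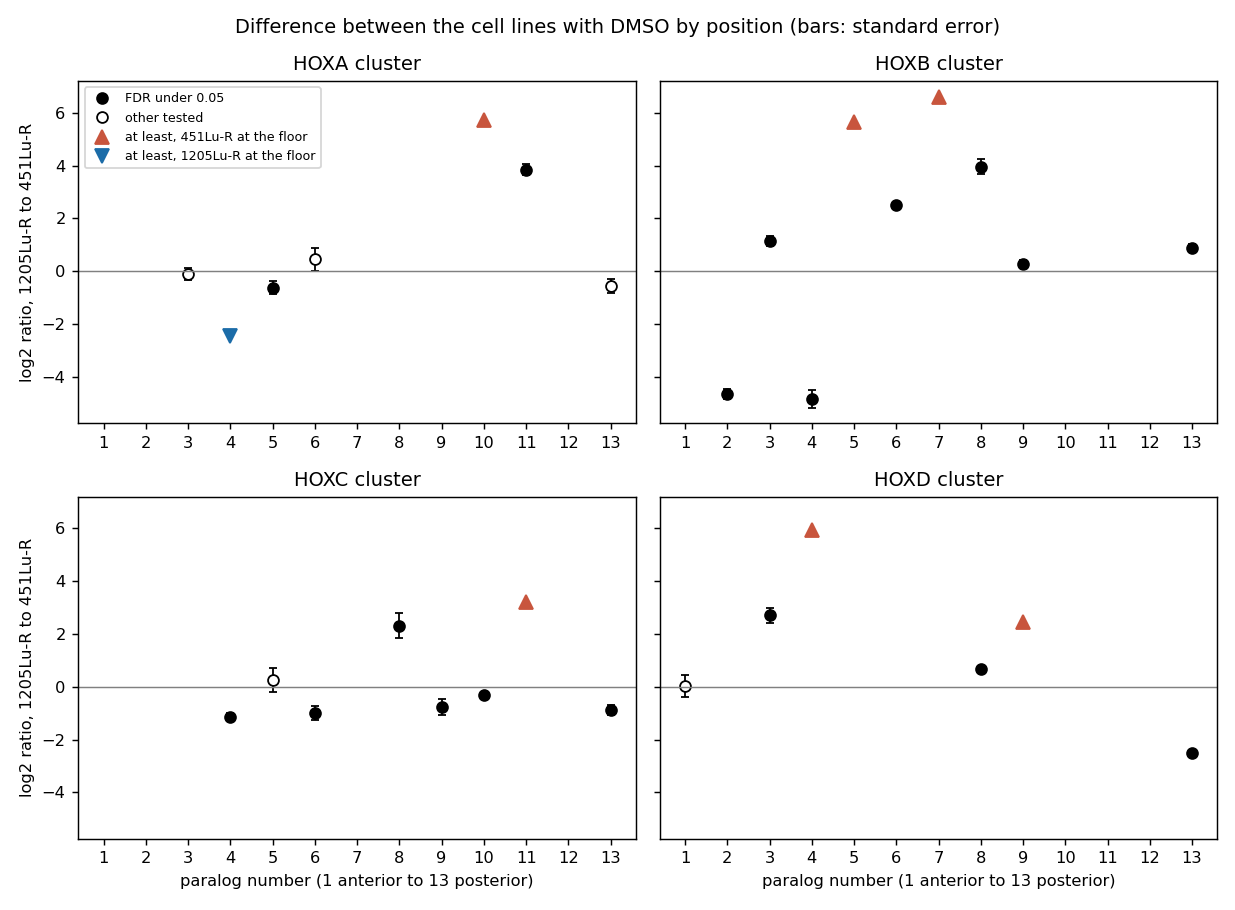
Log2 ratio of 1205Lu-R to 451Lu-R with DMSO (vertical axis, bars are the standard error of the fit) for each tested HOX gene by paralog number, with a panel for each cluster. Filled circles passed an FDR of 0.05, and triangles are lower bounds for genes at the floor in one line, red where 451Lu-R was at the floor and blue where 1205Lu-R was. HOXB2 and HOXB4 lie below -4 in the panel where HOXB5 and HOXB7 have the highest bounds.

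The same comparison was made with corin. Of 26 tested members 14 were higher and 7 lower in 1205Lu-R, against 39% and 40.2% of 15363 genes, and under the 4-fold rule 10 were higher and 1 lower (backgrounds 8.45% and 8.55%). Of the 10, 6 were at the floor in 451Lu-R. The others, HOXA3, HOXA6, HOXA11 and HOXB8, had at most 8 counts in a 451Lu-R library with corin. All 10 thus passed the filter only through 1205Lu-R. HOXB4, the 1 lower member, had 4 and 4 counts in 1205Lu-R and passed only through 451Lu-R. These counts and the values of these members are therefore a description. HOXA3, which had no detectable difference with DMSO, was 14.7-fold higher in 1205Lu-R with corin (adjusted p = 2.35e-07, edgeR). For HOXD1 and HOXA13 the difference with corin did not pass (log2 -0.33 ± 0.20, adjusted p = 0.136, and -0.28 ± 0.19, adjusted p = 0.178). These comparisons share libraries with the corin comparisons, so they are not separate evidence.

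Several members lie against long non-coding genes that are read from the opposite strand, and the strandedness of the libraries is not given in the sources used here. Of 23 listed non-coding genes of the clusters, 15 have a row and 4 were tested in each line. HAGLR, antisense to HOXD1 and HOXD3, rose in both, from 382 and 341 to 648 and 602 counts in 451Lu-R (1.75-fold, adjusted p = 2.61e-09) and from 442 and 417 to 628 and 704 counts in 1205Lu-R (1.55-fold, adjusted p = 3.35e-09). Its promoter windows overlap that of HOXD1 by 195 and 102 bases. HOXD-AS2, antisense to HOXD3 and HOXD8, fell in 451Lu-R from 92 and 85 to 9 and 11 counts (8.66-fold, adjusted p = 2.04e-09), where HOXD3 also dropped to the floor and HOXD8 did not pass. It had at most 1 count in any 1205Lu-R library. HOTAIRM1, of the HOXA cluster, rose in 1205Lu-R from 38 and 38 to 49 and 77 counts (1.65-fold, adjusted p = 0.0049), and had a log2 fold change of -0.42 ± 0.36 in 451Lu-R (adjusted p = 0.289). HOTTIP, antisense to HOXA13, was at the floor with DMSO and was not tested.

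Of 10 TALE cofactors of HOX proteins, 9 were tested, with 3 higher and 5 lower under corin in 451Lu-R, and 2 higher and 3 lower in 1205Lu-R. PBX2 and PBX3, whose proteins bind DNA as dimers with HOX proteins, fell in both lines. PBX2 fell from 305 and 274 to 56 and 40 counts (5.96-fold, adjusted p = 3.45e-13) and from 468 and 480 to 93 and 108 (4.72-fold, adjusted p = 2.7e-15). PBX3 fell 1.70-fold and 2.72-fold (adjusted p = 0.000218 and 4.38e-11), and PBX4 was not tested. MEIS1, a partner of posterior HOX proteins, rose 1.65-fold in 451Lu-R (adjusted p = 0.00013) and 4.91-fold in 1205Lu-R, from 28 and 45 to 163 and 197 counts (adjusted p = 6.59e-11). MEIS2 fell 1.77-fold in 451Lu-R (adjusted p = 2.07e-08) and had a log2 fold change of -0.02 ± 0.11 in 1205Lu-R. MEIS3 rose 1.75-fold in 451Lu-R (adjusted p = 1.43e-08) and fell 1.14-fold in 1205Lu-R (adjusted p = 0.0257). PKNOX2 fell in 451Lu-R from 684 and 632 to 119 and 94 counts (6.11-fold, adjusted p = 5.59e-16), and had 51, 52, 38 and 43 counts in 1205Lu-R with no call. PKNOX1 rose 1.34-fold in 451Lu-R (adjusted p = 7.56e-05) and had a log2 fold change of 0.21 ± 0.10 in 1205Lu-R (adjusted p = 0.0561). TGIF2 was among the largest changes of the list in 1205Lu-R, where it rose 4.07-fold from 25 and 18 to 73 and 103 counts (adjusted p = 4.52e-08), and it fell 1.80-fold in 451Lu-R (adjusted p = 4.88e-08).

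**Figure D5:**
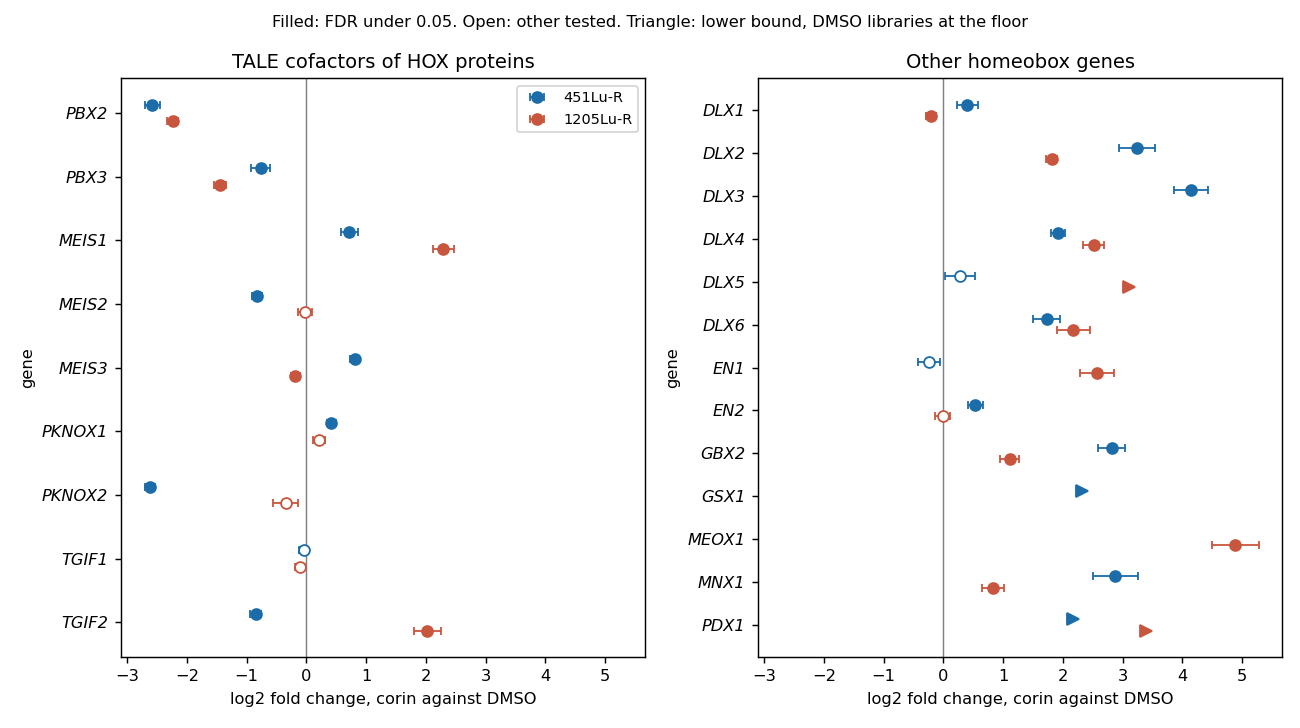
Log2 fold change of corin against DMSO (horizontal axis, bars are the standard error of the fit) for the tested TALE cofactors (left) and other homeobox genes (right), 451Lu-R in blue and 1205Lu-R in red, filled where the FDR was under 0.05, with triangles for lower bounds where both DMSO libraries were at the floor. PBX2 and PBX3 lie to the left of 0 in both lines, while 10 of 12 and 9 of 11 other homeobox genes rose, against 41.3% and 40.4% of all tested genes.

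Homeobox genes outside the clusters were not tested against the HOX genes, and their values are given beside them. Of 18 listed genes of the ParaHox, DLX, EN, GBX, EVX, MEOX and MNX families, 12 were tested in 451Lu-R, 10 rose and none fell at an FDR under 0.05 with a median log2 fold change of 2.37, and 11 were tested in 1205Lu-R, where 9 rose and 1 fell with a median of 2.18. Over all genes 41.3% and 40.4% rose. In each line 2 of the tested genes were at the floor with DMSO, and with these at their lower bounds the medians were 2.04 and 2.18. These and further genes, among them DLX3 in 451Lu-R and MEOX1 in 1205Lu-R, passed the filter only through their corin libraries. Such genes had to differ, so the counts, medians and their values are a description. PDX1, a pancreas regulator, had 0 counts in all 4 DMSO libraries, 14 and 13 in the corin libraries of 451Lu-R, and 28 and 38 in those of 1205Lu-R, at least 4.49-fold and 10.6-fold higher. GSX1 had 0 counts in the DMSO libraries of 451Lu-R but 15 in each corin library, at least 5.0-fold more. DLX3, a skin and bone regulator, rose there from 5 and 7 to 110 and 104 counts (17.7-fold, adjusted p = 5.13e-11), and MEOX1, a somite gene, rose in 1205Lu-R from 1 and 4 to 75 and 80 counts (29.6-fold, adjusted p = 1.88e-10). DLX5 had 1 and 2 counts with DMSO in 1205Lu-R and 24 and 30 under corin, which is at least 8.66-fold more.

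The genes known to set HOX expression were mixed. All 24 Polycomb repressive complex 1 and KMT2A complex genes described were tested, with 7 higher and 13 lower under corin in 451Lu-R, 6 and 13 for 1205Lu-R, and none past the 4-fold rule. PCGF2, a subunit of Polycomb repressive complex 1, fell from 449 and 402 to 150 and 113 counts in 451Lu-R (3.20-fold, adjusted p = 1.26e-12) and from 429 and 401 to 134 and 167 in 1205Lu-R (2.76-fold, adjusted p = 1.45e-12). MLLT3, a reader in elongation complexes, rose 3.66-fold and 3.36-fold (adjusted p = 2.11e-13 and 6.06e-13). KMT2B fell 2.90-fold in 1205Lu-R (adjusted p = 1.35e-12). Of the retinoic acid and CDX list, 13 of 22 were tested in each line, with 8 higher and 4 lower under corin in 451Lu-R, and 6 higher and 7 lower in 1205Lu-R. In 451Lu-R the retinoic acid receptor RARB went from 0 and 0 to 17 and 21 counts, at least 6.39-fold, and ALDH1A3, which makes retinoic acid, and CYP26B1, which degrades it, rose 15.96-fold and 10.96-fold (adjusted p = 4.96e-16 and 7.67e-15). In 1205Lu-R the binding protein CRABP2 rose from 17 and 9 to 323 and 344 counts (25.4-fold, adjusted p = 4.42e-16), and the hindbrain factor EGR2 rose 4.25-fold (adjusted p = 2.17e-12).

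The genes that flank the clusters had medians closer to that of all genes than the HOX members did. Of 28 listed, 24 were tested in 451Lu-R with 8 up and 14 down and a median log2 fold change of -0.24, and 23 in 1205Lu-R with 8 up and 12 down and a median of -0.12. CALCOCO1, beyond the HOXC13 end of HOXC, fell 3.19-fold and 2.65-fold (adjusted p = 1.69e-10 and 7.17e-05). SNX10, beyond the anterior end of HOXA, rose 5.74-fold in 1205Lu-R (adjusted p = 6.93e-17), CHN1, beyond HOXD13, rose 4.03-fold in 451Lu-R (adjusted p = 2.36e-11), COPZ1 fell 2.57-fold in 1205Lu-R (adjusted p = 1.33e-15), and TTLL6, beyond HOXB13, went from 2 and 1 to 13 and 15 counts in 451Lu-R, at least 4.70-fold.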

How the data were processed

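PolyA RNA of the 8 DMSO and corin libraries was sequenced on an Illumina NextSeq. Per the series' design text, the authors trimmed reads with Trimmomatic and quantified them with Salmon against the GENCODE 32 transcriptome, with versions not given in the sources used here, and they deposited expected counts (estimated counts) per gene without normalization. The authors' tables for PLX4032 plus corin against PLX4032 hold their own DESeq2 log2 fold changes and adjusted p-values and were not used, so those 8 samples were not analysed here.

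Counts were rounded, filtered with filterByExpr, scaled by TMM (factors 0.959 to 1.04) and tested with edgeR 4.0.16 (R 4.3.3) quasi-likelihood, 2-sided. Each comparison fitted its own 4 libraries, except the interaction of line and treatment, which fitted all 8. Every adjusted p in the text is from this edgeR test, Benjamini-Hochberg adjusted over all genes tested, and a call is an FDR under 0.05. SE is the log2 fold change divided by the square root of F. CPM used TMM over all 8 libraries, and CPM per kb divided by the exonic length in GENCODE 44 (hg38, the build of GENCODE 32). Of 34228 rows 34052 matched a symbol. The scripts were tested on simulated data.

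All HOX genes could be named, and from each other list at most the 3 largest called changes per corin comparison plus the PBX, MEIS and PKNOX genes. Of these, 1 member and 3 listed genes stayed in the fits but are not reported here. The Polycomb and KMT2A, cofactor, retinoic acid, flanking, non-coding, homeobox and marker lists and the members were chosen with earlier results of these data known, and DESeq2 1.42.0, other scalings, filters, a replicate block and single-library omissions served as alternatives. Nothing in the labels says that the 2 libraries of a group came from separate cultures, so p-values measure only the spread between these samples, which may be technical. Replicates differed by 1.34 to 1.41 chi-square per degree of freedom over genes and were kept as separate samples. Depth intervals are not given, and the floor of 3 counts covers counting error only.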

Additional observations from a re-analysis of the deposited data

Results flagged for a closer look

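For 12 of 30 tested members, 7 higher and 5 lower against 22.6% and 27.1% of all tested genes, the corin response differed between the lines by the edgeR interaction term, each value being the log2 response in 1205Lu-R minus that in 451Lu-R. Higher responses in 1205Lu-R were found for HOXA3 at 3.96, HOXA6 at 1.984, HOXA11 at 2.171, HOXB2 at 2.986, HOXC4 at 1.156, HOXD3 at 2.256 and HOXD13 at 0.746. Lower responses were found for HOXB5 at -4.188, HOXB6 at -0.719, HOXC10 at -0.5, HOXC13 at -0.725 and HOXD8 at -0.685. The largest positive values belong to HOXA3 and HOXB2, which lost most of their transcript in 451Lu-R with corin and did not pass the test in 1205Lu-R. HOXB5 was at the floor in both 451Lu-R groups, and HOXD3, HOXA6 and HOXA11 had at most 10, 14 and 15 counts in the 451Lu-R libraries. HOXA3 had 2 and 4 counts with corin in 451Lu-R, and HOXB2 had at most 15 in the 1205Lu-R libraries. The size of the differences of these members therefore rests on few counts. With each library left out in turn, 4 of the calls were lost in some of the 8 fits. HOXC13 passed in 5 of 8 (values from -0.903 to -0.592; lost without the second DMSO library of 451Lu-R, or the first DMSO or second corin library of 1205Lu-R) and HOXB6 in 3 (from -1.032 to -0.408; kept only without the second corin library of either line or the first DMSO library of 1205Lu-R). HOXA6 passed in 2 (from 1.175 to 3.578; kept only without the second DMSO or second corin library of 451Lu-R) and HOXD3 in 2 (from 1.243 to 5.464; kept only without the second corin library of 451Lu-R or the first of 1205Lu-R). The cause of the differences was not tested.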

How the results depend on the processing

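Of the members' values recomputed under other settings that kept all libraries, 858 kept their direction and their side of the threshold, 25 lost a call, 6 gained one and 4 changed sign, and no called member changed sign. The stricter rule (4-fold, FDR under 0.001) left 1 higher and 3 lower for corin in 451Lu-R, 0 and 2 in 1205Lu-R, 4 lower in 1205Lu-R than in 451Lu-R with DMSO and 1 with corin, and 2 higher and 0 lower for the difference between lines, where edgeR at an FDR of 0.05 gave 7 and 5. For that difference DESeq2 gave 5 higher and 2 lower, and library totals as the only scaling gave 9 higher and 2 lower, HOXB9 (0.57) and HOXB13 (0.49) gaining a call. That scaling moved the median log2 value of all genes from 0.03 to -0.07 in 451Lu-R, from 0.03 to 0.11 in 1205Lu-R and from -0.01 to 0.20 for the difference. Of the sign changes, HOXC13 in 1205Lu-R gave -0.0313 with no filter and -9.64e-05 with all 8 libraries in 1 fit, and library totals gave -0.071 for HOXD1 between lines with DMSO and 0.0807 for HOXD8 between lines with corin. The cause was not tested.

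Without single libraries the higher members of the difference between lines numbered 5 to 7. In such fits an arm has 1 library, assumed to vary like the others. Values without a call crossed 0, for corin in HOXC10 (451Lu-R, -0.12 to 0.0115), HOXA3 (1205Lu-R, -0.11 to 0.24), HOXB2 (-0.50 to 0.35) and HOXC13 (-0.13 to 0.14). Between lines with DMSO this held for HOXA3 (-0.28 to 0.068), HOXC5 (-0.22 to 1.08) and HOXD1 (-0.30 to 0.51), and with corin for HOXA13 (-0.56 to 0.0027), HOXC4 (-0.37 to 0.38) and HOXD8 (-0.0733 to 0.0788). For the difference between lines it held for HOXA13 (-0.000731 to 0.56), HOXB3 (-0.14 to 0.36), HOXC5 (-0.77 to 0.61), HOXC6 (-0.90 to 0.0638), HOXC9 (-0.0738 to 0.74) and HOXD4 (-0.51 to 3.47).

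The labels do not say that replicate numbers pair the samples, and the numbers were not taken to (correlation of deviations between DMSO and corin 0.036 for 451Lu-R, -0.084 for 1205Lu-R; between the cell lines 0.142 with DMSO, -0.034 with corin). With a replicate block, 3 members were higher and 12 lower with corin in 451Lu-R, against 4 and 17 for 1205Lu-R, HOXC4 gaining a call (-0.45), while HOXA5 between lines with DMSO (-0.62) and HOXA6 in the difference (1.98) lost theirs. With 2 libraries a group and low counts for many members, changes of low genes could not be resolved at this depth.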
